A study of Mus musculus with 6 samples.

Results

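The genes described here are 46 stress-response genes of mouse dermis, 37 immediate-early genes and 9 heat shock genes. They were taken by symbol from a table of 23412 genes, and all 46 were found in it. The skin came from activated beta-catenin mice and littermate controls, 3 samples of each, all 3 weeks old and on a mixed CD1 and C57BL/6 background. The mutants carried HoxB6CreERT, the R26-YFP reporter and the CatnbΔex3 allele, each over a wild-type copy. The controls carried HoxB6CreERT and R26-YFP only. Both groups were exposed to tamoxifen before birth, given to the mother at embryonic day 16.5. The tamoxifen-dependent Cre is driven by Hoxb6 sequences, so beta-catenin loses its exon 3, and with it the signal for its degradation, only in cells in which that driver was active and in their progeny. Total RNA of ventral dermis was sequenced. The labels list separate samples and do not say that each is 1 mouse, so p-values measure the spread between samples, part of which may be technical.

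Immediate-early genes are transcribed within minutes of a stimulus, without new protein synthesis, when kinase cascades reach factors such as SRF, CREB and NF-κB that already sit in the cell. Many of their RNAs are short-lived, and many of their products are transcription factors or inhibitors of the same cascades. Heat shock genes encode chaperones and are switched on by HSF1 when proteins unfold, although Hspa8, Hsp90aa1 and others are also made at high levels in unstressed cells. In skin both programmes are known to respond to wounding, warming and enzymatic dissociation. Here every piece of skin was kept overnight at 4 °C in 0.25% trypsin-EDTA and then for 45 minutes at 37 °C before the epidermis was taken off and the dermis frozen. All 6 samples went through these steps, and skin without trypsin was not analysed here, so the comparison is between genotypes handled alike. What handling added to any level was not tested.

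Levels are FPKM, fragments per gene divided by gene length and library depth, as the authors deposited them. Differences are on the log2(FPKM + 1) scale, activated beta-catenin minus control, from limma fitted to the 12560 genes that averaged 1 FPKM or more. Reads in genes, recovered from the FPKM steps, numbered 11839144 to 13478910 in the mutants and 7799565 to 9675359 in the controls, so every mutant library was deeper than every control. Controls 1 and 2 were female by Xist and Y-linked genes. Control 3 and the 3 mutants carried Y-linked RNA, and mutant 2 also had 6.47 FPKM of Xist. In dermis as a bulk tissue, fewer cells of a type and less RNA per cell cannot be told apart.

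No member was called in either direction. Of the 37 immediate-early genes 34 passed the filter on low FPKM, as did all 9 heat shock genes, and 0 of these 43 had an adjusted p under 0.05. Over all 12560 tested genes 0.143% were called in either direction, 0.143% higher and 0% lower. At an unadjusted p under 0.05, 3 of 43 members were higher (Dusp1, Klf2 and Socs3) and 0 lower, against 10.5% of all tested genes higher, 0.748% lower and 11.3% in total. After median-of-ratios scaling between libraries the split at an unadjusted p under 0.05 was 1 higher (Dusp1) and 3 lower (Egr3, Fosl2 and Dusp5), and over all tested genes 1316 higher and 771 lower, against 1323 and 94 as deposited. With limma-voom on recovered reads 0 members were called as well. All 3 mutants lay above all 3 controls in 4 of 43 members (Dusp1, Klf6, Btg2 and Dnajb1), against 13.0% of tested genes. All 3 mutants lay below all 3 controls in 1 of 43, Egr3, against 2.65%. The members' shares of non-overlapping genes were thus no higher than those of all genes. Overlap was counted on the deposited values only, not after scaling.

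The differences themselves were small and mostly above 0. The immediate-early genes had a median log2 difference of 0.16, with 26 of 34 above 0 and a range of -0.24 to 0.65. The heat shock genes had a median of 0.19, with 8 of 9 above 0 and a range of -0.02 to 0.30. The same median over all tested genes was 0.09, and 71.3% of them were above 0. After scaling that median was -0.01, a shift of the whole table, and the immediate-early and heat shock medians were 0.05 and 0.08. The 95% interval of a member reached a median of 0.39 to either side for immediate-early and 0.46 for heat shock genes, against 0.34 for all tested genes. Its upper bound stayed under 1 on the log2 scale in 42 of 43 members, the exception being Socs3 with 1.25. Its lower bound stayed above -1 in all 43. When library sex entered the fit, which then sets the mutants against control 3 alone, the medians were -0.13 for immediate-early and -0.11 for heat shock genes.

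**Figure D1:**
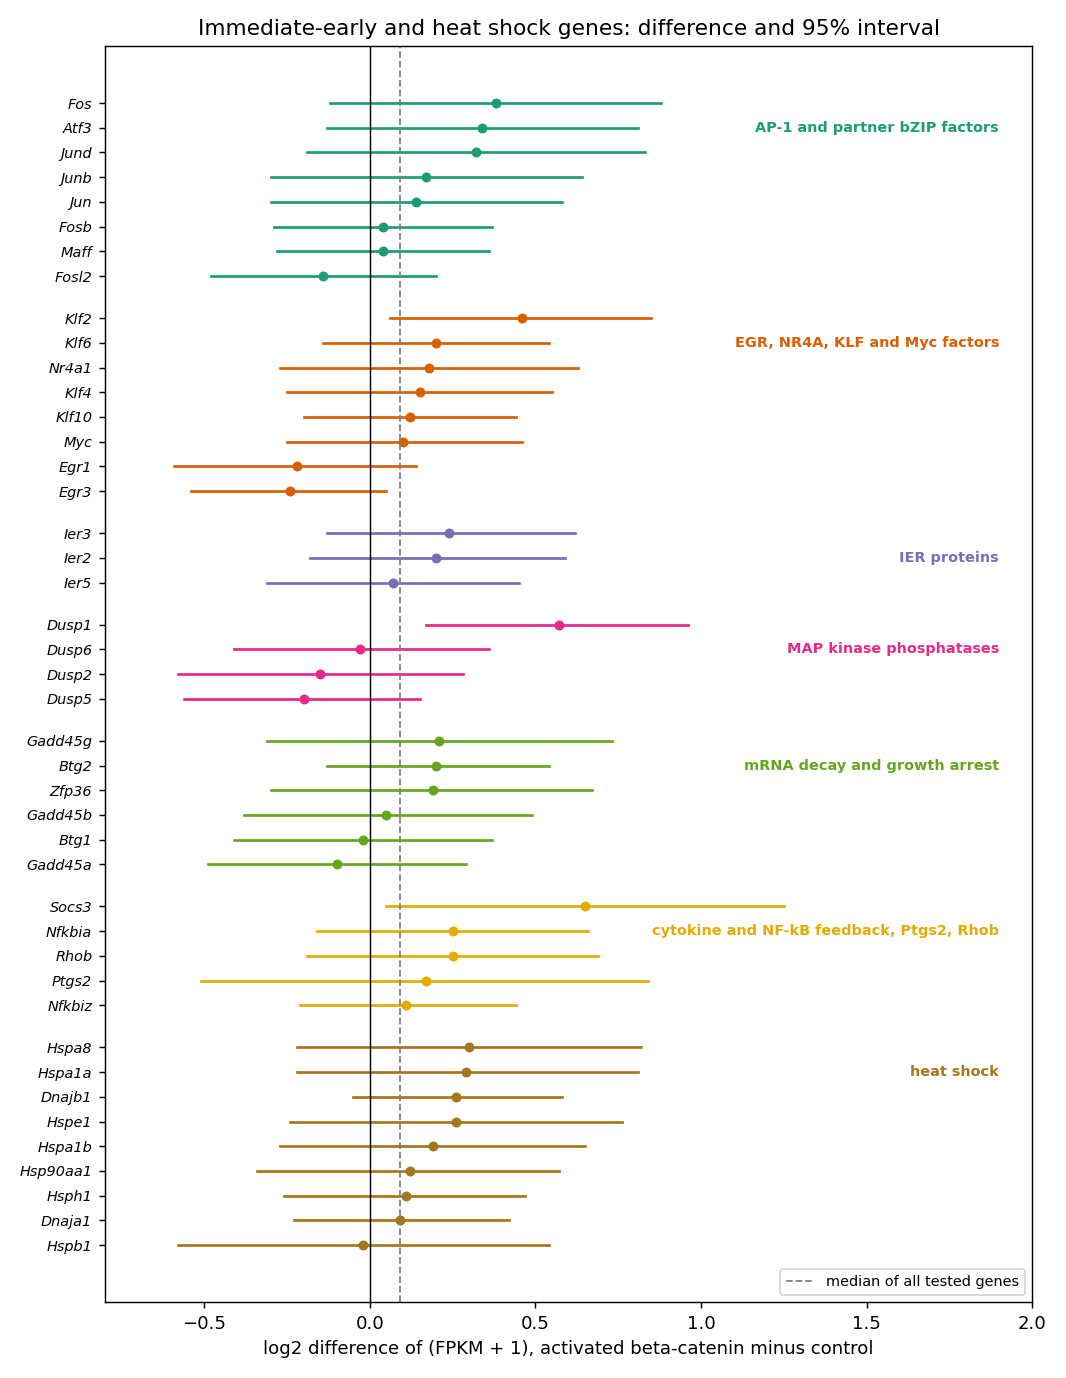
Log2 difference of FPKM + 1 (activated beta-catenin minus control, x axis) for the 43 tested members, grouped by role. Points are limma estimates and lines their 95% intervals (3 libraries a group); the dashed line is the median of all tested genes, 0.09. All but 3 intervals include 0, and those of Dusp1, Klf2 and Socs3 lie above it before adjustment for multiple tests.

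The AP-1 genes encode the Fos and Jun proteins, which pair to bind DNA, together with the related bZIP factors Atf3 and Maff. Of 8 tested genes 0 were called, and 7 had differences above 0. Fos (chromosome 12, 85473890 to 85477273, GRCm38), a standard readout of recent stimulation, had 64.3, 61.0 and 50.5 FPKM in mutants 1 to 3, against 39.6, 36.5 and 60.7 FPKM in controls 1 to 3. Control 3 stood above mutant 3 and close to mutant 2, and the groups overlapped. The log2 difference was 0.38 (SE 0.22, adjusted p = 0.598), or -0.06 with sex in the fit. Atf3 (chromosome 1, 191170296 to 191218039), a stress-induced repressor and activator, was at 21.5, 22.5 and 18.0 FPKM in the mutants and at 12.7, 14.3 and 22.7 FPKM in the controls. Control 3 was here the highest of all libraries, and the difference was 0.34 (SE 0.21, adjusted p = 0.633). Jun (chromosome 4, 95049034 to 95052222), the main partner of Fos, had 42.6, 36.8 and 33.7 FPKM in the mutants and 31.7, 28.5 and 43.6 FPKM in the controls. Its difference was 0.14 (SE 0.20, adjusted p = 0.883), again with control 3 above every mutant. Jund (chromosome 8, 70698949 to 70700616), the Jun protein of resting cells, was at 27.6, 19.0 and 20 FPKM in the mutants, against 18.5, 12.4 and 22.6 FPKM in the controls (log2 difference 0.32, SE 0.23, adjusted p = 0.70).

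The other AP-1 genes spread to both sides of 0. Junb averaged 53.5 ± 11.2 FPKM in mutants and 47.3 ± 8.17 FPKM in controls (mean ± SD, n = 3 each), the second highest level of the immediate-early genes after Fos. Fosb and Maff, a small Maf protein, had log2 differences of 0.04 each, which were -0.06 and -0.05 after median-of-ratios scaling. Fosl2, an AP-1 member with a longer-lived product, was at 26.2 ± 2.81 FPKM in mutants and 29.0 ± 1.68 FPKM in controls, a difference of -0.14. Fosl1 was not tested for its low level, with at most 0.220 FPKM in the mutants and 0.310 FPKM in the controls, or 2 to 9 reads a library.

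Among the EGR, NR4A, KLF and Myc factors 0 of 8 tested genes were called, and 6 of 8 differences were above 0. The 2 below 0 were the EGR zinc finger genes, whose products carry growth factor signals to later genes. Egr1 had 25.2, 24.1 and 24.4 FPKM in mutants 1 to 3, against 23.9, 30.9 and 32.6 FPKM in controls 1 to 3. The mutants lay close together and inside the range of the controls, and the log2 difference was -0.22 (SE 0.16, adjusted p = 0.704). Egr3 (chromosome 14, 70077203 to 70082614) had 11.4, 10.5 and 10.5 FPKM in the mutants and 14.4, 11.7 and 12.8 FPKM in the controls. It was the member whose mutants all lay below the controls, by a narrow margin, with a difference of -0.24 (SE 0.13, adjusted p = 0.562). This sign was the same under all 14 alternatives run. After scaling the unadjusted p was 0.00431 and the adjusted p 0.144, and with sex in the fit the unadjusted p was 0.334. Fos and Egr1, often induced together through SRF, had estimates of opposite sign, although neither passed the test and the difference between them was not tested. With sex in the fit both were below 0, Fos at -0.06 and Egr1 at -0.39.

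Klf2 (chromosome 8, 72319033 to 72321656), a factor best known from endothelium under flow, was at 5.68, 4.90 and 3.78 FPKM in mutants 1 to 3, against 2.91, 2.57 and 4.20 FPKM in controls 1 to 3. Control 3 exceeded mutant 3, and the log2 difference of 0.46 (SE 0.18) had an unadjusted p of 0.0274 and an adjusted p of 0.354. The values rest on 73 to 101 reads in the mutants and 37 to 57 reads in the controls. Beside it, 10 endothelial marker genes had a median log2 difference of 0.21, with 0 of 10 called, and summed to 55.7 to 67.5 FPKM in the mutants and 43.7 to 53.7 FPKM in the controls. The part of endothelium in the Klf2 values was not tested. Klf6, a KLF gene of injured tissue, was at 30.6 ± 3.86 FPKM in mutants and 26.4 ± 0.820 FPKM in controls. All 3 mutants were above the controls by a narrow margin, with 27.1 FPKM in mutant 2 and 26.9 FPKM in control 3. The difference was 0.20 (SE 0.15, limma adjusted p = 0.728), or 0.09 after median-of-ratios scaling. Klf4, needed for the epidermal barrier, and Klf10, a gene induced by TGF-beta, had differences of 0.15 and 0.12. Myc had one of 0.10, which was -0.13 with sex in the fit. Of the NR4A orphan nuclear receptors, Nr4a1 was at 8.93 ± 1.95 FPKM in mutants and 7.83 ± 2.12 FPKM in controls. Nr4a2 and Nr4a3 were not tested, with 0.524 to 1.02 FPKM in the mutants and 0.561 to 1.03 FPKM in the controls over both genes.

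The 3 IER genes, named only for their early response, had differences of 0.07 to 0.24, with 0 called. Ier3 (chromosome 17, 35821684 to 35822923) had 19.0, 13.4 and 14.1 FPKM in mutants 1 to 3 and 11.6, 12.1 and 14.8 FPKM in controls 1 to 3. Mutant 1 stood out at the top, while control 3 exceeded the other 2 mutants (log2 difference 0.24, SE 0.17, adjusted p = 0.684). Ier2 was at 19.6 ± 3.54 FPKM in mutants and 16.8 ± 2.36 FPKM in controls, and Ier5 at 13.0 ± 1.94 FPKM in mutants and 12.4 ± 2.23 FPKM in controls.

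The dual-specificity phosphatases switch off the MAP kinases that induced them. Dusp1 (chromosome 17, 26505590 to 26562128), which acts on p38 and JNK and is also induced by glucocorticoids, had the smallest p of all members. It was at 28.5, 26.8 and 22.5 FPKM in mutants 1 to 3, against 16.7, 14.3 and 21.0 FPKM in controls 1 to 3, from 928 to 1109 reads in the mutants and 439 to 610 reads in the controls. The groups did not overlap, but mutant 3 and control 3 were close. The log2 difference was 0.57 (95% interval 0.17 to 0.96, SE 0.18, unadjusted p = 0.0101, adjusted p = 0.239). It was 0.46 after median-of-ratios scaling, 0.28 with sex in the fit, and between 0.44 and 0.71 with each library left out in turn. The other 3 phosphatase genes lay below 0: Dusp2 at -0.15, the nuclear ERK phosphatase gene Dusp5 at -0.20 and the cytoplasmic ERK phosphatase gene Dusp6 at -0.03. In mutant 2 these 3 genes were at their lowest of all libraries, with 6.20 FPKM of Dusp2, 2.47 FPKM of Dusp5 and 19.7 FPKM of Dusp6. Mutant 2 was also the lowest library as deposited in 4424 of 12560 tested genes. Dusp1 in that library was at 26.8 FPKM, above every control.

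Genes of mRNA decay and growth arrest stood at 4 of 6 above 0, with 0 called. Zfp36, or tristetraprolin, binds AU-rich elements and speeds the decay of many immediate-early and cytokine RNAs. It had 34, 30.3 and 26.0 FPKM in mutants 1 to 3 and 21.5, 22.8 and 36.3 FPKM in controls 1 to 3. Control 3 was the highest library, and the difference of 0.19 (SE 0.22, adjusted p = 0.841) was -0.27 with sex in the fit. Btg2 (chromosome 1, 134075170 to 134079120), an antiproliferative partner of the deadenylase complex, had 24.3, 19.1 and 19.3 FPKM in the mutants, against 17.0, 18.1 and 18.6 FPKM in the controls. Its groups were separate by less than 1 FPKM (log2 difference 0.20, SE 0.15, adjusted p = 0.708). Its relative Btg1 had a difference of -0.02. The 3 Gadd45 genes, whose products act in growth arrest and stress kinase signalling, had differences of -0.10 for Gadd45a, 0.05 for Gadd45b and 0.21 for Gadd45g. Gadd45g ranged from 10.9 to 15.1 FPKM in the mutants and from 8.76 to 16.9 FPKM in the controls, with control 3 highest.

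All 5 genes of cytokine and NF-κB feedback, Ptgs2 and Rhob had differences above 0, and 0 were called. Socs3 (chromosome 11, 117966079 to 117970047), which blocks signalling by IL-6 family receptors, had the largest difference of the members. It was at 14.2, 15.7 and 9.35 FPKM in mutants 1 to 3, against 7.83, 5.11 and 11.6 FPKM in controls 1 to 3. Mutants 1 and 2 were above all controls, while mutant 3 was below control 3, and the difference was 0.65 (95% interval 0.05 to 1.25, SE 0.27, unadjusted p = 0.0363, adjusted p = 0.394). Without control 3 it was 0.91, and with sex in the fit 0.13. Nfkbia (chromosome 12, 55489410 to 55492647), the inhibitor that NF-κB induces against itself, had 34.5, 28.2 and 23.7 FPKM in the mutants and 21.6, 22.4 and 27.8 FPKM in the controls (log2 difference 0.25, SE 0.18, adjusted p = 0.704). Nfkbiz, a nuclear relative, was at 8.64 ± 0.550 FPKM in mutants and 7.99 ± 1.48 FPKM in controls. Rhob, a small GTPase gene, had a difference of 0.25. Ptgs2, the inducible cyclooxygenase gene, varied most between libraries, from 1.77 to 4.75 FPKM in the mutants and from 1.33 to 3.49 FPKM in the controls (log2 difference 0.17, SE 0.30).

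Of the 9 heat shock genes 0 were called. Hspa1a (chromosome 17, 34969190 to 34972156) and Hspa1b (chromosome 17, 34956436 to 34959238) are the stress-inducible Hsp70 genes, each of 1 exon. Hspa1a had 9.06, 11.7 and 10 FPKM in mutants 1 to 3, against 6.61, 6.40 and 12.7 FPKM in controls 1 to 3. Hspa1b had 19.0, 22.5 and 20.4 FPKM in the mutants, against 15.8, 14.4 and 25.3 FPKM in the controls. In both genes control 3 was the highest library and controls 1 and 2 the lowest. The log2 differences were 0.29 for Hspa1a (SE 0.23, adjusted p = 0.735) and 0.19 for Hspa1b (SE 0.21, adjusted p = 0.828), which were -0.29 and -0.28 with sex in the fit. The copies share long stretches: 1716 of 2918 stretches of 50 bases in the Hspa1a transcript (58.8%) also occur in that of Hspa1b, so how counting split their reads makes each value uncertain. Their summed level, which does not depend on that split as long as shared reads were kept, was 28.1, 34.2 and 30.4 FPKM in the mutants and 22.4, 20.8 and 38.0 FPKM in the controls.

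Hspa8 (chromosome 9, 40800984 to 40810087), the constitutive Hsp70 gene, had the highest level of all members, at 154, 114 and 138 FPKM in mutants 1 to 3 and 108, 89.3 and 134 FPKM in controls 1 to 3. Its difference of 0.30 (SE 0.23, adjusted p = 0.731) was the largest of the heat shock genes, or 0.01 with sex in the fit, and the groups overlapped. Dnajb1 (chromosome 8, 83608193 to 83612653), an Hsp40 co-chaperone and HSF1 target, was the heat shock gene with separate groups in the deposited values. It was at 21.0, 22.4 and 20.6 FPKM in the mutants, against 17.6, 15.8 and 19.6 FPKM in the controls. The log2 difference was 0.26 (SE 0.14, limma unadjusted p = 0.0942, adjusted p = 0.558). After median-of-ratios scaling it was 0.15 (limma adjusted p = 0.560). Hspe1 (chromosome 1, 55088132 to 55091307), the mitochondrial co-chaperonin gene, had 65.0, 40.3 and 50.3 FPKM in the mutants and 43.4, 34.6 and 50.6 FPKM in the controls (log2 difference 0.26, SE 0.22, adjusted p = 0.765). The rest were nearer to 0. Hsph1, the Hsp110 gene, was at 0.11, Hsp90aa1, the inducible cytosolic Hsp90, at 0.12 and the Hsp40 gene Dnaja1 at 0.09. Hspb1, a small heat shock protein gene also made in keratinocytes and muscle, was at 73.0 ± 19.2 FPKM in mutants and 72.9 ± 14.7 FPKM in controls, a difference of -0.02.

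**Figure D2:**
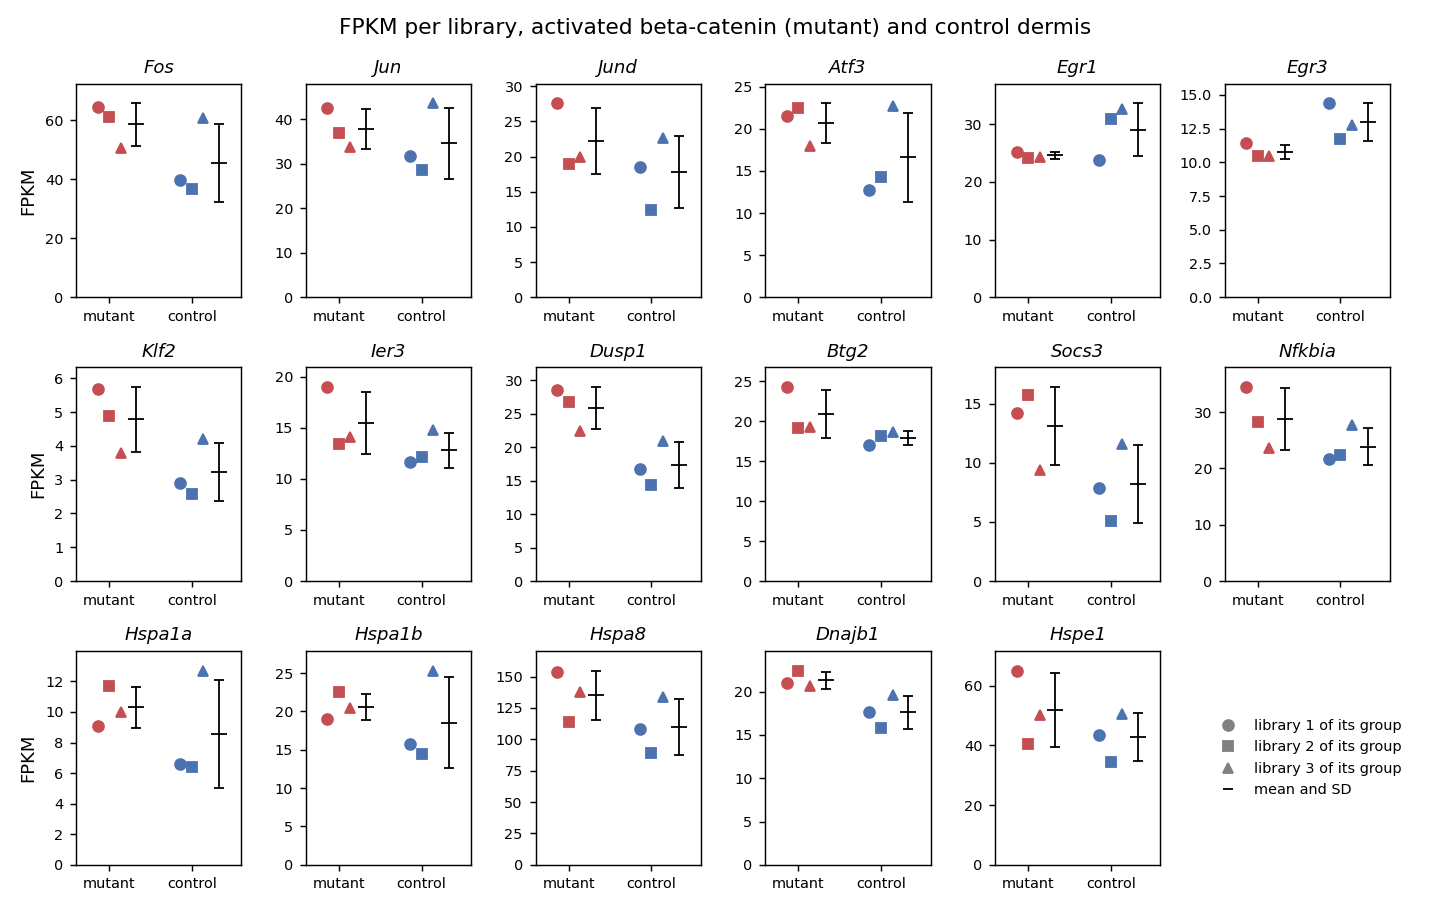
FPKM (y axis, from 0) of 17 members in each library, mutants in red left of controls in blue, with mean ± SD of 3 libraries beside each group. Control 3, the blue triangle, is near or above the mutants in most panels, as in Fos (60.7 FPKM) and Hspa1b (25.3 FPKM), and in Egr3 every mutant lies below every control.

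Promoter sequence is shown for 5 members, which include Dusp1, the member with the smallest p, and members with the main inducible elements. RefSeq windows (GRCm38.p6), from 250 bases before to 50 bases after the start site, were at hand for 37 of the 46 members. Fosl1, Egr1, Egr3, Klf10, Myc, Ier2, Nfkbiz, Hspa8 and Hsp90aa1 had none and were not searched. Capitals mark the CRE in Dusp1, the CArG box and the EGR site in Zfp36, short CRE sites and the TATA box in Fos, a heat shock element of 3 units in Hsph1 and one of 2 units in Hspa1b.
Dusp1 promoter (GRCm38.p6, chr17:26508423-26508722, minus strand): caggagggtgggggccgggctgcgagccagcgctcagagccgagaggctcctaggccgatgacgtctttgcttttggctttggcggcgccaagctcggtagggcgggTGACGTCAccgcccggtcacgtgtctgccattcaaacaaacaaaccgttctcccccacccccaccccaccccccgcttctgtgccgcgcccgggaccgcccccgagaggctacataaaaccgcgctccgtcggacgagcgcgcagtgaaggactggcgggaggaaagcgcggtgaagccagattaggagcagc
Zfp36 promoter (GRCm38.p6, chr7:28379179-28379478, minus strand): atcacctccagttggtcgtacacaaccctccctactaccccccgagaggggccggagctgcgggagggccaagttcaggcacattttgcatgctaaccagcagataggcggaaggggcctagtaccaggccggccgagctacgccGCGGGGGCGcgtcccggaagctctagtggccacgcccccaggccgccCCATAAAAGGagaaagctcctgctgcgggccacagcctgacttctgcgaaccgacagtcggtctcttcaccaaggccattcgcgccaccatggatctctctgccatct
Fos promoter (GRCm38.p6, chr12:85473640-85473939, plus strand): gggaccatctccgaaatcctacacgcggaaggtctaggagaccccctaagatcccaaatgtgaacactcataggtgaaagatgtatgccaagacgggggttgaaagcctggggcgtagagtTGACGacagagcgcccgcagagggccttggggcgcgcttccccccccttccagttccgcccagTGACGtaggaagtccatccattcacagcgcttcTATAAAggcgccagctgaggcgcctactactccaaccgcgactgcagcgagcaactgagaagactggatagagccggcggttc
Hsph1 promoter (GRCm38.p6, chr5:149636266-149636565, minus strand): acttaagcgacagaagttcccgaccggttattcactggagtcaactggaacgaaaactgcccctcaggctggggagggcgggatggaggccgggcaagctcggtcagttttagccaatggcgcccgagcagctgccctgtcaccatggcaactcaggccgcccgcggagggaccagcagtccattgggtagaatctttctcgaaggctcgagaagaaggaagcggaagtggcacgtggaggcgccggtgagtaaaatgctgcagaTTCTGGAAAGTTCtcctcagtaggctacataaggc
Hspa1b promoter (GRCm38.p6, chr17:34959189-34959488, minus strand): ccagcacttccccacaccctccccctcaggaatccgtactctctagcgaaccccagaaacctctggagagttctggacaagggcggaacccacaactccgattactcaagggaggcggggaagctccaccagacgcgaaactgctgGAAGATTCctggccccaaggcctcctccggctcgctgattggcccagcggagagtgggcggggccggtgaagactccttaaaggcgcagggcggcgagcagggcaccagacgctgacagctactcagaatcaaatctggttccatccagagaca

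Both strands were searched with no mismatch. The CArG box bound by SRF was found in 2 of 30 immediate-early promoters, Zfp36 and Dusp5, and in 0 of 7 heat shock promoters, against 1.81% of all 27025 genes with a window. The full CRE, TGACGTCA, was in 3 of 30 (Dusp1, Btg2 and Maff), against 2.03%. The short CRE site, TGACG, which every full CRE also contains, was in 16 of 30 immediate-early and 4 of 7 heat shock promoters, against 23.0%. The EGR site, GCGNGGGCG, was in 12 of 30 immediate-early promoters and 1 of 7 heat shock promoters, against 6.27%, and the AP-1 site, TGANTCA, in 0 of 37 members, against 8.97%. A heat shock element of 2 units, GAANNTTC or its shifted form TTCNNGAA, was in 6 of 7 heat shock and 2 of 30 immediate-early promoters, against 17.0%. One of 3 units, GAANNTTCNNGAA or its inverse, which includes the shorter form, was in Hsph1 and Hspe1, against 0.662%. TATAAA was in 7 of 30 immediate-early promoters, against 15.7%. These are matches of letters in a short window, and enhancers farther out were not searched. The windows of Hspa1a and Hspa1b are the same at 296 of 300 positions.

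Most members have short genes with few exons, with exceptions. In GENCODE M21 the tested immediate-early genes had a median of 4 exons over 4247 bases and the heat shock genes 4 exons over 4461 bases, against 9 exons over 23284 bases for all tested genes with a location. Atf3 (47744 bases) and Nfkbiz (27525 bases) spanned more than that median. Hsph1 with 18, Nfkbiz with 14, Hsp90aa1 with 11 and Ptgs2 with 10 exons had more exons. The annotated span of Dusp1, 56539 bases, was also longer, but it reaches upstream of the promoter window shown above. From that window (chr17:26508423-26508722) to the gene end at 26505590 Dusp1 is much shorter than that span. A single exon was annotated for 8 of 43 members, namely Jun, Junb, Jund, Ier2, Ier5, Rhob, Hspa1a and Hspa1b, against 627 of 11880 tested genes.

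Immediate-early and heat shock genes had similar medians in most libraries, with the widest gap in mutant 3. Against the mean of the controls, the immediate-early median was 0.34, 0.03 and 0.03 in mutants 1 to 3 and -0.09, -0.13 and 0.23 in controls 1 to 3. The heat shock median was 0.28, -0.01 and 0.18 in the mutants and -0.05, -0.17 and 0.28 in the controls. Mutant 1 and control 3 were thus high in both lists, and controls 1 and 2 low. Immediate-early minus heat shock, the medians differed by 0.06, 0.04 and -0.14 in mutants 1 to 3 and by -0.03, 0.05 and -0.05 in controls 1 to 3. Over the fitted differences between genotypes the gap was -0.03, less than the spread of 0.09 (SD) of this gap between libraries. All tested genes had medians of 0.25, -0.06 and 0.10 in the mutants and 0.07, -0.11 and 0.04 in the controls. Mutant 1 was thus also the highest library over all tested genes, while control 3 was near 0 there.

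**Figure D3:**
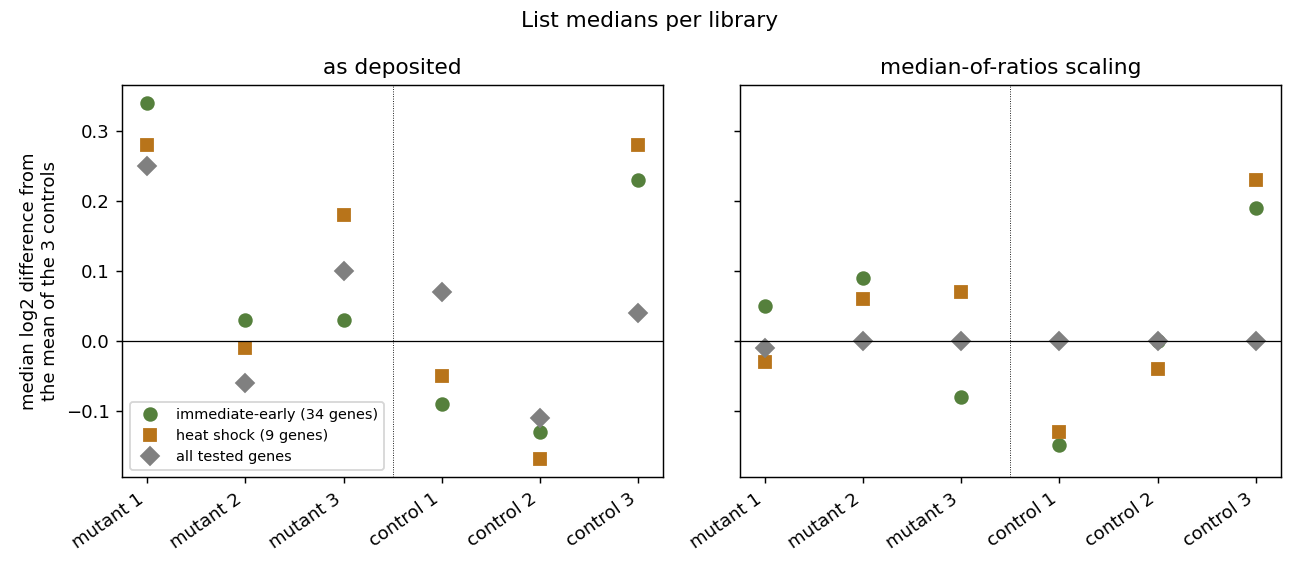
Median log2 difference from the mean of the 3 controls (y axis) per library for immediate-early genes, heat shock genes and all tested genes, as deposited (left) and after median-of-ratios scaling (right). In both panels control 3 has the highest or joint highest heat shock median (0.28 and 0.23), while both member lists lie at or below 0 in controls 1 and 2.

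After median-of-ratios scaling control 3 stood highest in both lists, with medians of 0.19 for immediate-early and 0.23 for heat shock genes. The immediate-early median was then 0.05, 0.09 and -0.08 in mutants 1 to 3 and -0.15 and -0.00 in controls 1 and 2. The heat shock median was -0.03, 0.06 and 0.07 in the mutants and -0.13 and -0.04 in controls 1 and 2. The 2 lists thus lay on opposite sides of 0 in mutant 1, with a gap of 0.08, and in mutant 3, with a gap of -0.15. As a share of gene reads, the 37 immediate-early genes took 0.296%, 0.295% and 0.282% in mutants 1 to 3, against 0.272%, 0.299% and 0.312% in controls 1 to 3. The 9 heat shock genes took 0.138%, 0.134% and 0.147% in the mutants and 0.125%, 0.130% and 0.151% in the controls. On this measure too the groups overlapped, with control 3 at the top and control 1 at the bottom.

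Control 3 was the highest control in 40 of 43 members (31 of 34 immediate-early and 9 of 9 heat shock), against 39.8% of all tested genes. After scaling this was 36 of 43, against 33.3%. Some other lists shared this order as deposited: control 3 was the highest control in 10 of 11 macrophage, 9 of 10 skeletal muscle and 7 of 10 fibroblast markers, and in 25 of 34 further chaperone genes. The further immediate-early genes stood at 30 of 48. Others did not share it: 0 of 10 keratinocyte, 2 of 8 smooth muscle and 2 of 7 adipocyte markers, and 7 of 24 upstream genes. Control 3 lay above the mean of the mutants in 30 of 43 members, against 38.6% of tested genes. Set against the mean of controls 1 and 2, control 3 had a median difference of 0.35 in the members and 0.06 in all tested genes. The mutants had 0.25 in the members and 0.11 in all tested genes against the same 2 controls. The largest differences of control 3 were in Hspa1a (0.87), Gadd45g (0.84), Socs3 (0.78), Ptgs2 (0.72), Atf3 and Hspa1b (0.71 each), Zfp36 (0.69) and Fos (0.66). In these genes the mutants stood at 0.58, 0.49, 0.91, 0.41, 0.57, 0.43, 0.42 and 0.60 against controls 1 and 2. Control 3 is also the only male control, so its own state and its sex cannot be told apart with this design, and these comparisons share libraries and were not tested.

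**Figure D4:**
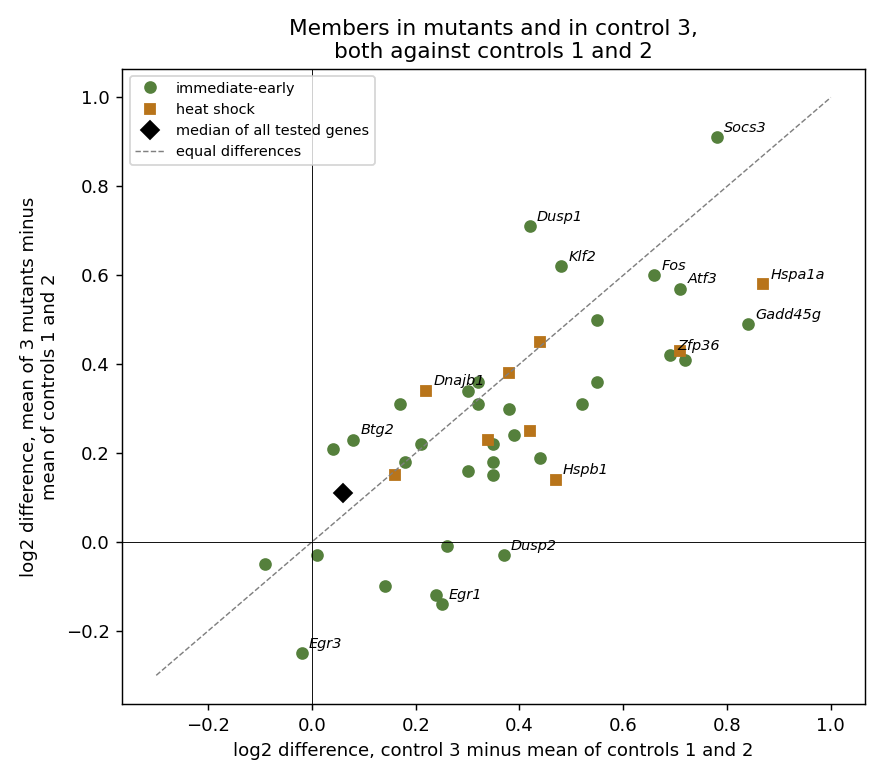
Each tested member by its log2 difference of FPKM + 1 in control 3 (x axis) and in the mean of the 3 mutants (y axis), both against the mean of controls 1 and 2, which the axes share. Most members lie right of 0 and below the dashed line of equal differences, and Dusp1, Klf2 and Socs3 are among those above it; the black diamond, the median of all tested genes, is at 0.06 and 0.11.

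Other genes of the same programmes were not called either. Of 51 further immediate-early and early response genes 48 were tested and 0 were called, with a median of 0.09. At an unadjusted p under 0.05, 3 of 48 were higher and 0 lower, against 10.5% and 0.748% of all tested genes. After median-of-ratios scaling that split was 2 higher and 6 lower, against 1316 and 771 of 12560 tested genes. The median was then -0.02. The urokinase receptor gene Plaur was at 1.64 ± 0.254 FPKM in mutants and 0.862 ± 0.310 FPKM in controls (log2 difference 0.51, adjusted p = 0.227). Cebpd, a factor of the acute phase response, had a difference of 0.62 (adjusted p = 0.333) and Irf1, an interferon response factor, one of 0.46 (adjusted p = 0.367). Of 34 further heat shock and chaperone genes, all tested, 0 were called and 27 were above 0, with a median of 0.15. The largest difference, 0.89, was that of Serpinh1, the collagen chaperone of the endoplasmic reticulum, at 181 ± 43.3 FPKM in mutants and 101 ± 39.1 FPKM in controls (adjusted p = 0.299). Hsf2, a relative of HSF1, had a difference of 0.28 (adjusted p = 0.398) and the Hsp40 gene Dnajb5 one of 0.38 (adjusted p = 0.429). Among 24 kinases, factors and protease receptors upstream, 0 were called and the median was 0.09. Elk3, a ternary complex partner of SRF, was at 3.94 ± 0.292 FPKM in mutants and 2.79 ± 0.321 FPKM in controls (log2 difference 0.38, adjusted p = 0.244). Elk1, another such partner, had 0.22 and the kinase gene Braf -0.32 (adjusted p = 0.531 and 0.476).

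Marker genes of other cell types were also set side by side with the members. All mutants lay above all controls in 9 of 10 dermal fibroblast and 10 of 11 tested macrophage markers, against 13.0% of tested genes. With sex in the fit the fibroblast median was 0.66, with a range of -0.38 to 1.74. Without it the 10 fibroblast markers had a median log2 difference of 1.04, with 0 of 10 called. They summed to 7019 to 10031 FPKM in mutants and 2041 to 7697 FPKM in controls. The 11 tested macrophage markers also had a median of 1.04, with 1 of 11 called, the Fc receptor chain gene Fcer1g (log2 difference 1.30, SE 0.13, adjusted p = 0.0242), and summed to 234 to 416 FPKM in mutants and 90.4 to 158 FPKM in controls. With sex in the fit Fcer1g was no longer called, and the macrophage median was 0.65. Without mutant 2 no macrophage marker was called (lowest limma adjusted p 0.0843). Other alternatives gave more macrophage calls: 2 after median-of-ratios scaling, 3 with limma-voom and 7 without control 3. Fibroblast markers called under the same 3 alternatives numbered 0, 4 and 3. The member medians of 0.16 and 0.19 thus stood beside larger differences in these markers. Skeletal muscle markers, 0 of 10 called, followed single libraries, summing to 1629, 1033 and 751 FPKM in mutants 1 to 3 and 1174, 374 and 1500 FPKM in controls 1 to 3. Keratinocyte and hair follicle markers had a median of 0.10, with 0 of 10 called and sums of 2756 to 4665 FPKM in mutants and 3842 to 4149 FPKM in controls. Adipocyte markers had a median of 0.53 (0 of 7 called, sums of 266 to 510 FPKM in mutants and 334 to 359 FPKM in controls). Smooth muscle and pericyte markers had one of 0.30 (0 of 8 called, sums of 141 to 203 FPKM in mutants and 95.7 to 160 FPKM in controls). Of 6 measured neutrophil markers, 2 passed the filter, with 0 called. The neutrophil sum was 12.1 to 20.1 FPKM in mutants and 8.84 to 12.6 FPKM in controls, and Elane and Mpo were at 0 in some libraries. The part of these cells in the members' values was not tested.

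**Figure D5:**
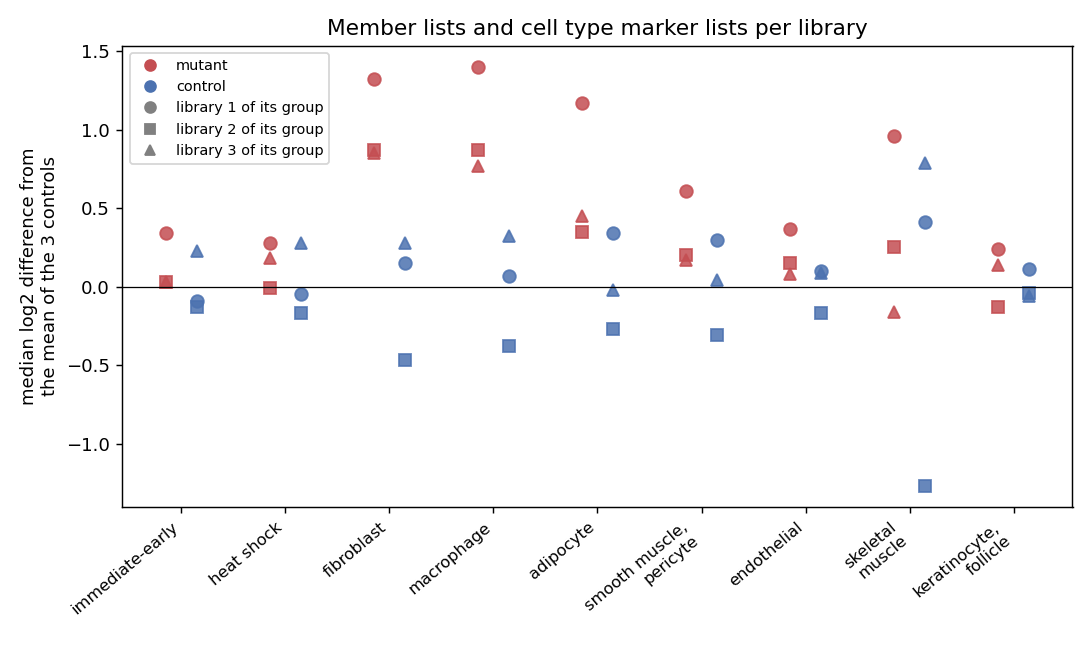
Median log2 difference from the mean of the 3 controls (y axis) for the member lists and the marker lists of 7 cell types, per library, mutants in red left of controls in blue. Fibroblast and macrophage medians of the mutants (0.77 to 1.40) lie above those of all controls, whereas the immediate-early and heat shock medians of the groups overlap.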

How the data were processed

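Dermal RNA of 3 mutant and 3 control samples was made into stranded total RNA libraries, per the labels' protocols. Per the submitters' processing notes, GSNAP and HTSeq were used with build mm10, and their versions and the annotation were not given in the sources used here. Each deposited value is an FPKM of the authors for 1 gene in 1 library.

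Values were compared as log2(FPKM + 1), which understates changes of low genes, for the 12560 genes that averaged 1 FPKM or more, with limma 3.58.1 (R 4.3.3; intensity trend, two-sided, Benjamini-Hochberg over all tested genes, threshold 0.05, prior degrees of freedom 5.44, no covariate). An exact permutation test of 3 against 3 libraries cannot give a p below 0.1. Whole reads were found behind the FPKM steps for 20144 of 20144 genes seen in at least 2 libraries, by the smallest solution within rounding. They served for depth and an added limma-voom test, with library sizes from medians of ratios. The fits were tested on simulated data. Locations are from GENCODE M21 (GRCm38), promoters from RefSeq (GRCm38.p6).

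The members and all gene lists were chosen with earlier results of these data known. Values per library are given for Fos, Jun, Egr1, Atf3, Hspa1a and Hspa1b, for the 8 further immediate-early and 3 further heat shock genes with the smallest p, and for the most abundant of each list (Fos and Hspa8). Zfp36 and the values of single further genes in the text were added after they were seen. Of each other list at most 3 genes are named, by smallest p. Alternatives were another pseudocount and filter, other scalings, each library left out, a replicate block, library sex and limma-voom.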

Additional observations from a re-analysis of the deposited data

How the results depend on the processing

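Over 14 alternatives no member was called: the lowest adjusted p of a member was 0.0903, without control 3. Of 43 tested members 16 kept their sign under all alternatives. Genes called higher over the whole table numbered 18, and 9 with a pseudocount of 0.1, 4 without a filter on low FPKM, 28 after median-of-ratios scaling, 32 after quantile normalization, 80 with limma-voom on recovered reads, 10 with library sex in the fit and 67 with the replicate block. Genes called lower numbered 0, and 1 with library sex in the fit and 1 with the replicate block. The replicate numbers are not known to pair samples: same-numbered libraries had correlations of 0.00, 0.04 and -0.08 in their deviations from the group means, and the block changed no member's call. With 1 library left out at a time, genes called higher ranged from 3 to 189: 8, 3 and 49 without mutants 1, 2 and 3, and 29, 11 and 189 without controls 1, 2 and 3. Genes called lower ranged from 0 to 4.

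When library sex entered the fit the list medians were -0.13 for immediate-early and -0.11 for heat shock genes. The members whose sign turned had log2 differences of -0.06 (Fos), -0.26 (Fosb), -0.21 (Jun), -0.09 (Junb), -0.04 (Jund), -0.13 (Atf3), -0.19 (Maff), -0.19 (Nr4a1), -0.01 (Klf10), -0.13 (Myc), -0.01 (Ier2), -0.17 (Ier5), -0.27 (Zfp36), 0.04 (Btg1), -0.15 (Gadd45b), -0.35 (Gadd45g), -0.32 (Ptgs2), -0.15 (Nfkbiz), -0.29 (Hspa1a), -0.28 (Hspa1b), -0.17 (Hsph1), -0.01 (Dnaja1) and -0.11 (Hsp90aa1). This fit rests on control 3 as the only male control. After median-of-ratios scaling the signs of Fosb (-0.06), Maff (-0.05), Myc (-0.00), Ier5 (-0.04), Gadd45b (-0.05), Hsph1 (-0.00) and Dnaja1 (-0.01) turned. Quantile normalization turned Fosb (-0.07), Maff (-0.10), Ier5 (-0.04), Gadd45b (-0.04), Dnaja1 (-0.01) and Hsp90aa1 (-0.03). Limma-voom turned Fosb (-0.07), Maff (-0.06), Myc (-0.00), Ier5 (-0.04), Gadd45b (-0.06), Hsph1 (-0.00) and Dnaja1 (-0.01). With 1 library left out, signs turned within -0.04 to 0.19 for Fosb, -0.03 to 0.15 for Maff, -0.02 to 0.22 for Myc, -0.06 to 0.18 for Ier5, -0.33 to 0.02 for Dusp2, -0.12 to 0.12 for Dusp6, -0.14 to 0.13 for Btg1, -0.20 to 0.09 for Gadd45a, -0.15 to 0.20 for Gadd45b, -0.17 to 0.41 for Ptgs2, -0.16 to 0.22 for Hspb1, -0.01 to 0.19 for Dnaja1 and -0.00 to 0.25 for Hsp90aa1. The cause of these turns was not tested. Depth limits the lowest members most, such as Klf2 with 37 reads in control 2.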
